A study of Homo sapiens with 4 samples.

Results

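High-scoring input-free sites were peaks of SAF-A pull-down replicate 1 with a score of at least 100 that overlapped, by 1 base or more on the same strand, a peak of at least 100 in pull-down replicate 2 and no peak of either input. This rule found 99 sites among the 96061 peaks of pull-down replicate 1, in a series of 278959 peaks in 4 lists. Each site had 1 partner peak in replicate 2. The sites were thus chosen by their scores, their presence in both pull-downs and their absence from the inputs, and these values are descriptions and carry no test. Chromosome, neighbouring peaks and the choice of strand were not used by the rule. Positions and strand entered it through the overlaps, which wider peaks meet more easily. An overlap also bounds how far apart the ends of 2 narrow peaks can lie.

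The pull-down group held 2 samples and the input group 2. All 4 came from HCT116, an established human colorectal carcinoma line, with SAF-A in its wild-type form. Cells were crosslinked with ultraviolet light and lysed, the lysate was treated with DNase and RNase A, and part of it was immunoprecipitated with a monoclonal SAF-A antibody while another part served as input. RNA of both groups was taken from the membrane region around and above the size of SAF-A, so an input sample holds RNA crosslinked to any protein of that size. Whether the replicates are separate cultures is not stated, so the spread between them may be technical.

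SAF-A, also called hnRNP U, is an abundant nuclear protein that binds RNA through an arginine- and glycine-rich region and DNA through a SAP domain. It is a component of the nuclear matrix, takes part in RNA processing and in the organisation of chromatin, and is known to contact nascent and intron-containing transcripts broadly. In CLIP-seq, RNA fragments that were crosslinked to the protein are sequenced, and a narrow peak marks a place where such fragments pile up. A size-matched input may hold RNA crosslinked to SAF-A too. A peak that is listed in the pull-downs and not in such an input is not by that alone shown to be specific to SAF-A.

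The score is a whole number given by the authors, never under 10, and no source used here says what it measures. Strong, stronger and strongest refer below to score or its rank only, and not to a measured strength of binding. The highest scores were 794 and 810 in the pull-downs (replicates 1 and 2) and 1269 and 1159 in the inputs. A score of 100 or more was held by 4167 and 4556 pull-down peaks, or 4.34% and 4.10% of each list, against 1002 and 1402 input peaks, or 3.41% and 3.32%. The input lists were shorter, with 29386 and 42256 peaks against 96061 and 111256 in the pull-downs, and read depth is unknown. A site without an input peak is therefore a site that these lists do not hold, and not one shown to lack input RNA. Coordinates below are 1-based. They are read as GRCh37, because 1214 peaks of the 4 lists end past the GRCh38 ends of their chromosomes and 0 past the GRCh37 ends. Neither a genome nor an annotation of GRCh37 was used here, so the sites carry no gene names and no sequences.

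The first question was how often a strong pull-down peak has no listed input peak. Of the 2148 peaks of pull-down replicate 1 that scored at least 100 in both pull-downs, 2049 also had an input peak and 99 did not, a share of 4.61% without one. Of the 2049, 2004 (97.8%) had a peak in both inputs. For strong peaks that were found in only 1 pull-down the proportions were the reverse. Replicate 1 held 1214 peaks of at least 100 that met no peak of any score in replicate 2, and 1155 of these (95.1%) had no input peak. Replicate 2 held 1453 such peaks, and 1382 (95.1%) had no input peak. Between these extremes lay the strong peaks whose partner in the other pull-down scored under 100, of which 93 of 805 in replicate 1 (11.6%) and 112 of 955 in replicate 2 (11.7%) had no input peak. Of the 4167 strong peaks of replicate 1, 2004 were thus listed in all 4 libraries with a high score in both pull-downs, and 1155 in replicate 1 alone. The 99 high-scoring input-free sites were a small group beside these. The inputs showed a similar division. Of the input peaks with a score of at least 100 in both inputs, 87 of 727 in replicate 1 (12.0%) and 87 of 726 in replicate 2 (12.0%) had no pull-down peak, against 121 of 142 (85.2%) and 202 of 263 (76.8%) of those found in 1 input.

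**Figure D1:**
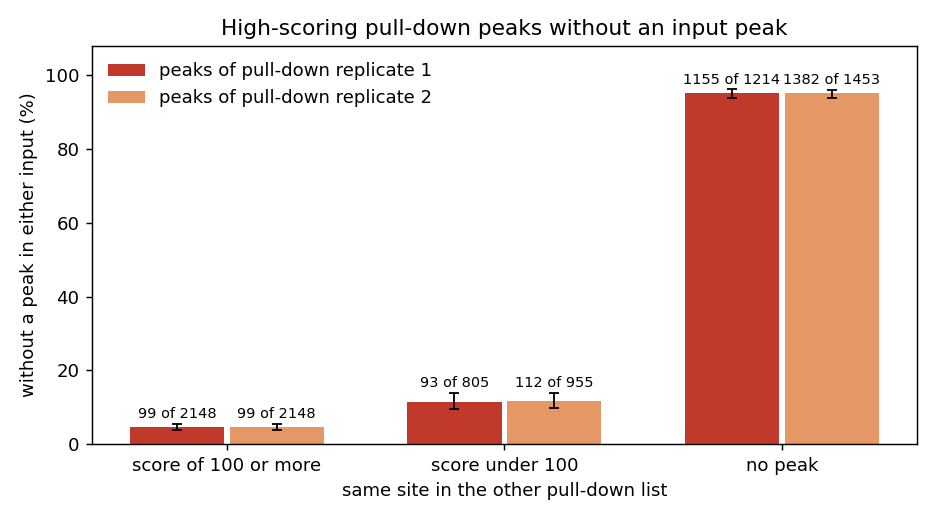
Share of pull-down peaks with a score of at least 100 that had no peak in either input (y axis, percent), by what the other pull-down listed at the same site (x axis), for both pull-downs. Bars are shares, error bars 95% Wilson intervals (counting error only), and numbers are peaks; the share is 4.61% where both scores were high and 95.1% where the other pull-down had no peak.

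The share of shared pull-down sites without an input peak was lower at higher scores, taken as the smaller of the 2, up to the minimum of 100. It was 84.1% of 21783 sites at a smaller score of 10 to 14, 66.1% of 18579 at 15 to 24, 32.7% of 14586 at 25 to 49 and 7.42% of 5913 at 50 to 99. Within the high-scoring range it was 4.77% (57 of 1196; 95% Wilson interval 3.70 to 6.12) at 100 to 149, 3.40% (16 of 470; 2.11 to 5.46) at 150 to 199, 5.14% (18 of 350; 3.28 to 7.98) at 200 to 299 and 6.06% (8 of 132; 3.10 to 11.5) from 300 upwards. Of the 99 sites, 57 (57.6%) had a smaller score under 150.

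Scores of the 99 sites ran from 101 to 570 in replicate 1, with a median of 151, and from 100 to 759 in replicate 2, with a median of 151. High-scoring sites with an input peak had medians of 158 and 156. Replicate 1 gave the higher score at 49 sites and replicate 2 at 49. The larger score was at most 1.5 times the smaller at 89 of the 99 sites, and the median ratio was 1.13 both here and among the sites with an input peak. Over the 99 sites Spearman's rho between the scores was 0.77, and over the 2049 sites with an input peak it was 0.76. Both describe 1 pair of libraries and sites that passed the same minimum in each. In replicate 1, Spearman's rho between score and width was 0.00 over the 99 sites and 0.25 over the 2049.

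**Figure D2:**
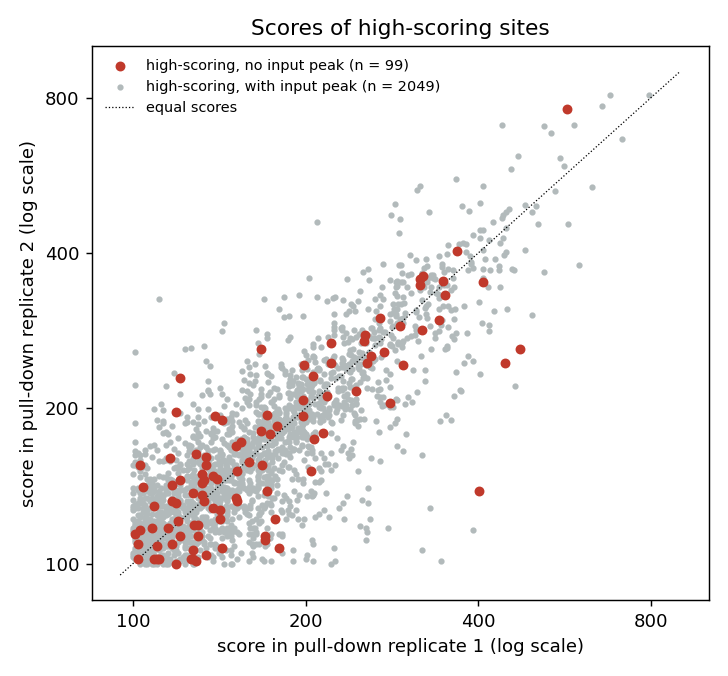
Score in pull-down replicate 2 (y axis, log scale) against score in replicate 1 (x axis, log scale) for the 99 high-scoring sites without an input peak (red) and the 2049 with one (grey); the dotted line marks equal scores. The red points lie within the grey cloud, and the site on chromosome 7 with scores of 570 and 759 stands at the upper end of the red points.

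The strongest site by mean rank lay on the plus strand of chromosome 7. It spanned 82573435 to 82573468 in replicate 1 and 82573434 to 82573465 in replicate 2. It scored 570 and 759, which ranked 11 and 4 in the lists. The next peak of its strand was 79333 bases away in both pull-downs, and the next input peaks were 106033 and 106031 bases away. It was thus strong, 34 and 32 bases wide, and far from the other listed peaks of its strand. The second site, on chromosome 12 (minus strand, 65192603 to 65192623), scored 367 and 403 and had the same 5′ end in both pull-downs. A peak of the same strand lay 3083 and 3077 bases from it in the pull-downs and 3082 and 3083 bases in the inputs. An input peak was thus listed nearby in this case, and none at the site itself.

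The third site, on chromosome 2 (minus strand, 223526982 to 223527028), scored 407 and 351. Its peak was 47 bases wide in replicate 1 and 28 in replicate 2, with the same 3′ end. The fourth, on chromosome 11 (minus strand, 71362503 to 71362528), scored 347 and 353, and its ends in the 2 lists were 1 and 2 bases apart. The fifth, on chromosome 2 (plus strand, 217284691 to 217284783), scored 350 and 331 and shared its 3′ end, while its 5′ end lay 42 bases farther downstream in replicate 2. These 3 sites differ in shape: 2 of them have a common 3′ end and an unequal 5′ end.

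A site on chromosome X (plus strand, 147455730 to 147455760) scored 320 and 361. One on chromosome 17 (plus strand, 76971864 to 76971888) scored 317 and 356 and had its nearest neighbour on the same strand 12755 bases away in all 4 libraries, while on the opposite strand the inputs listed peaks 169 and 163 bases away. On chromosome 9 (plus strand, 107436499 to 107436530), the peak scored 316 and was 32 bases wide in replicate 1, and it scored 347 and was 97 bases wide in replicate 2. Its 5′ ends were 1 base apart, so here the 3′ end differed, by 66 bases. Next came a plus-strand site of chromosome 7 from 75436923 to 75436946 (scores of 341 and 296) and a minus-strand site of chromosome 10 from 15006654 to 15006680 (473 and 261).

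The next 10 sites by mean rank were 16 to 32 bases wide in replicate 1. They lay on chromosomes 16, 17, 11, 5, 8, 2, 19 and 3, of which 16 and 8 held 2 each. On the plus strand of chromosome 16, a site from 11816189 to 11816206 scored 319 and 283, and one from 15599730 to 15599757 scored 445 and 245. The site on chromosome 17 (plus strand, 3412175 to 3412204) scored 292 and 289, nearly equal. Sites on the minus strands of chromosome 11 (40604074 to 40604105), chromosome 5 (140204221 to 140204242) and chromosome 2 (241963671 to 241963695) scored 270 and 299, 274 and 257, and 254 and 277. On the plus strand of chromosome 8, a site from 22595413 to 22595428 scored 296 and 242, and one from 48982159 to 48982183 scored 253 and 270. The second of these was one of the few with a close neighbour, 290 and 287 bases away in the pull-downs. The site on chromosome 19 (minus strand, 18912690 to 18912711) scored 260 and 253, and the one on chromosome 3 (minus strand, 179064557 to 179064579) scored 256 and 245. This last peak had the same 2 ends in both lists, 23 bases apart.

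Both scores were at least 200 at 26 sites and at least 300 at 8. Among the best 500 peaks of each list were 22 of the sites in replicate 1, 19 in replicate 2 and 17 in both. Next to the minimum, 1 site had a smaller score of 100, 2 had 101 and 7 had 102, and of these 10 sites 4 were on the plus strand and 6 on the minus strand. The site at 100 lay on chromosome Y (18204181 to 18204193) and those at 101 on chromosomes 6 (157242993 to 157243018) and 15 (64875382 to 64875404), all on the minus strand. Of the 7 at 102, those with the poorest mean ranks were minus-strand sites of chromosomes 3 (63892586 to 63892627) and 18 (70320502 to 70320528). Just outside it, 2 input-free shared sites had a smaller score of 99, on chromosomes 1 and 8, and 4 had 98. The first of these, on chromosome 1 (minus strand, 28056011 to 28056026), scored 99 and 100, so that 1 unit of score kept it out.

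The scores of the 2 pull-downs differed most at a site on chromosome 19 (minus strand, 10785304 to 10785337), with 401 in replicate 1 and 138 in replicate 2, a ratio of 2.91. Its ends nevertheless lay 1 base apart in the 2 lists and it was 34 bases wide in each. A site on chromosome 1 (minus strand, 71846026 to 71846049) scored 121 and 229, a ratio of 1.89. The other sites with the largest ratios were those of chromosomes 16 and 10 named above, at 1.82 and 1.81, and a site on chromosome 2 (plus strand, 238893286 to 238893303), which scored 180 and 107 with the same ends in both lists.

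High-scoring input-free sites were wider at the median than the groups they were set beside, and most of their widths lay in a short range. All peaks of a pull-down list had a median width of 15 bases in each replicate. The median width was 26 bases in replicate 1 and 25 in replicate 2, and the quartiles were 21 and 32 bases in replicate 1 and 18.5 and 29 bases in replicate 2. Widths of 20 to 35 bases made up 62.6% of the sites in replicate 1 (95% Wilson interval 52.8 to 71.5) and 60.6% in replicate 2 (50.8 to 69.7). High-scoring sites with an input peak had a median of 21 and 22 bases, and 44.4% and 45.7% of them were 20 to 35 bases wide. Lower-scoring input-free sites, which are the 35815 other peaks of replicate 1 that met a replicate 2 peak and no input peak, had a median of 13 bases in each pull-down, and 11.2% and 11.9% were of that width. Against the high-scoring sites with an input peak, the median was higher by 4.0 ± 1.4 bases (SD over 2 libraries). The medians differed in the same direction in both libraries. A two-sided exact sign-flip test of this gives p = 0.5, the smallest that 2 libraries allow. The share of 20 to 35 bases was higher by 16.6 ± 2.4 percentage points. This range encloses the quartiles of the high-scoring input-free sites in replicate 1, 21 and 32 bases. A higher share than in other groups is therefore partly given by the range, and it is a description only. Both libraries list the same sites, with peaks that overlap by rule. Their differences are thus not independent, and equal signs and a small SD are partly given.

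The order of the medians also held within ranges of score. At a smaller score of 100 to 149, replicate 1 peaks had a median width of 27 bases without an input peak and of 20 with one. At 150 to 199 the medians were 22.5 and 21, at 200 to 299 they were 26 and 24, and from 300 upwards 31.5 and 25.5. The upper 3 ranges hold 16, 18 and 8 sites without an input peak. Peaks of at least 100 in replicate 1 that met neither a replicate 2 peak nor an input peak had a median of 19 bases, below that of the high-scoring input-free sites, and 37.6% of these 1155 peaks were 20 to 35 bases wide.

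**Figure D3:**
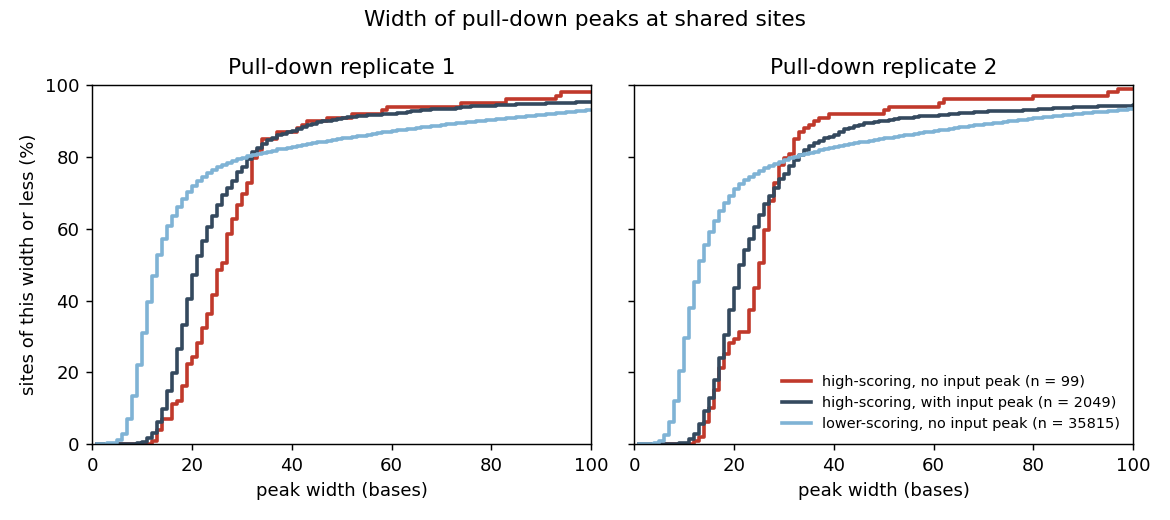
Share of sites with a peak of a given width or less (y axis, percent; x axis, bases, drawn up to 100) in pull-down replicates 1 and 2, for high-scoring sites without an input peak (red), high-scoring sites with one (dark blue) and lower-scoring sites without one (light blue). Red lies to the right of the other curves through most of the range from 15 to 30 bases, with medians of 26 and 25 bases against 21 and 22 and against 13 and 13.

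Wide peaks, of at least 50 bases, were few: 9 of 99 sites in replicate 1 (9.09%, 4.86 to 16.4) and 8 in replicate 2 (8.08%, 4.15 to 15.1). The shares were 9.52% and 10.2% of the high-scoring sites with an input peak, and 15.1% of the lower-scoring input-free sites in each library. The widest high-scoring input-free site of replicate 1 lay on chromosome 17 (minus strand, 62870436 to 62870605). It was 170 bases wide in replicate 1 and 27 in replicate 2, and both peaks had the same 3′ end. Another, on chromosome 10 (minus strand, 21104781 to 21104928), was 148 and 80 bases wide, again with 1 shared 3′ end. One more, on chromosome 8 (minus strand, 116951855 to 116951948), was 94 and 95 bases wide and scored 154 and 172, so that a wide peak was found again almost base for base. On chromosome X (plus strand, 40406019 to 40406101) the peak was 83 bases wide in replicate 1 and 24 in replicate 2, with a shared 5′ end. In replicate 2 the widest was a plus-strand peak of chromosome 14 from 31881102 to 31881286, of 185 bases, at a site that was 41 bases wide in replicate 1.

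In replicate 1, 7 sites were 12 to 14 bases wide. They lay on the plus strand of chromosome 20 (29525729 to 29525740), the plus strand of chromosome 8 (22112353 to 22112365), the minus strand of chromosome 1 (236510380 to 236510392), the minus strand of chromosome Y named above, the plus strand of chromosome 16 (4691266 to 4691279), the plus strand of chromosome 10 (21604120 to 21604133) and the minus strand of chromosome 5 (126341547 to 126341560). Their widths in replicate 2 were 14, 15, 12, 18, 17, 14 and 15 bases. Of the 9 sites of at least 50 bases in replicate 1, 5 were 50 to 95 bases wide in replicate 2 and 4 were 24 to 27 bases wide. The other 3 sites of at least 50 bases in replicate 2 were 20 to 41 bases wide in replicate 1. Over all 99 sites the replicate 1 peak was the wider at 46, the replicate 2 peak at 38, and 15 had equal widths, with a Spearman's rho of 0.62 between the widths.

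Both pull-downs placed the ends of most sites within a few bases of each other. The overlap that the rule asked for bounds these distances by the peak widths, so close ends are partly given. The 5′ end was the same base at 23 of 99 sites (23.2%, 95% Wilson interval 16.0 to 32.5) and lay within 2 bases at 65 (65.7%, 55.9 to 74.3). The 3′ end was the same base at 47 sites (47.5%, 37.9 to 57.2) and lay within 2 bases at 80 (80.8%, 72.0 to 87.4). The median distance between the ends was 1 base at either end. Both ends were identical at 10 sites (10.1%), the 3′ end alone at 37, the 5′ end alone at 13 and neither at 39. Both were within 2 bases at 53 sites (53.5%). The 3′ end was thus the more often shared. Ends more than 20 bases apart were seen at 7 sites for the 5′ end and at 4 for the 3′ end, up to 158 and 66 bases. Where the ends differed they had no one direction: replicate 2 began upstream of replicate 1 at 33 sites and downstream at 43, and ended upstream at 27 and downstream at 25.

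The difference between the ends was not limited to these sites. Among high-scoring sites with an input peak, 19.1% (17.4 to 20.8) had the same 5′ end and 38.8% (36.7 to 40.9) the same 3′ end. Among lower-scoring input-free sites these shares were 16.2% (15.8 to 16.6) and 39.7% (39.2 to 40.2). For all peaks of at least 100 in both lists, the 3′ end was the more often shared in each of the 6 pairs of libraries, with 19.3% and 39.2% (5′ and 3′) between the pull-downs, 13.4% to 16.7% and 26.8% to 32.1% between a pull-down and an input, and 27.4% and 41.1% between the inputs. Pairs that have a library in common are not independent. The intervals for the 99 sites include 19.1% and 16.2% for the 5′ end and 38.8% and 39.7% for the 3′ end. They are wide and cover counting error only, so whether identical ends differ between the groups was not tested. Within 2 bases, the 3′ ends of the 99 sites met more often (80.8%, 72.0 to 87.4) than those of the sites with an input peak (68.9%, 66.9 to 70.9) and of the lower-scoring sites (70.1%, 69.7 to 70.6). These intervals do not overlap, but they cover counting error only and come from 1 pair of libraries, so the difference was not tested over replicates.

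**Figure D4:**
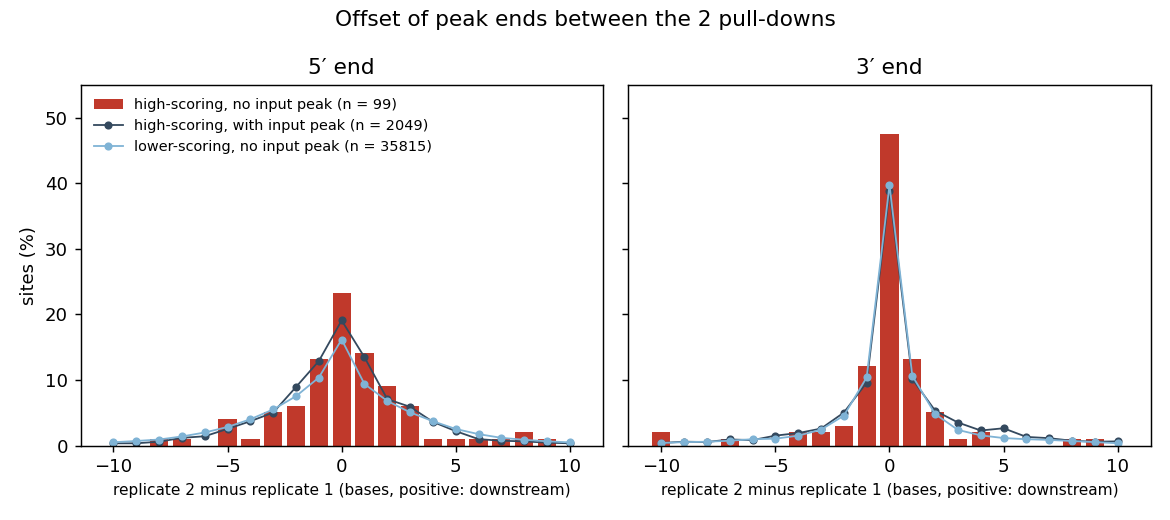
Offset of the 5′ end (left) and 3′ end (right) of a site in pull-down replicate 2 from replicate 1, in bases along the strand (x axis, positive is downstream, offsets over 10 bases not drawn), as a share of sites (y axis, percent). Bars are the 99 high-scoring sites without an input peak, dark blue points the high-scoring sites with one and light blue points the lower-scoring sites without one; the bar at 0 is 23.2% for the 5′ end and 47.5% for the 3′ end.

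The 2 peaks of a site overlapped by most of their width. The median overlap was 24 bases, or 90.5% of the wider peak, against 85.0% at high-scoring sites with an input peak and 73.3% at lower-scoring input-free sites. The overlap reached 50% of both peaks at 89 of 99 sites (89.9%) and 90% at 51 (51.5%). Among the sites with an input peak these shares were 89.7% and 35.9%, and among the lower-scoring sites 79.5% and 20.9%. The smallest overlap, 14.6% of the wider peak, was at 1 of the sites with unequal widths. Short peaks lose a larger part of their overlap for each base of offset, and the 3 groups differed in width as given above.

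The sites were spread over 23 of the 25 chromosomes in the lists, the mitochondrial genome included. Chromosomes 2 and 8 held 9 sites each, chromosomes 1 and 5 held 8 each, chromosome 17 held 7 and chromosomes 10 and 12 held 6 each. Chromosome 21 and the mitochondrial genome held 0 of the 99, which allows a share of up to 3.03% in each when 3 counts are taken as the limit of a count of 0 (Wilson upper limit 3.74%). Chromosome 21 held 1.07% of the high-scoring sites with an input peak and 1.16% of the lower-scoring input-free sites. The mitochondrial genome held 0.05% and 0.01% of them, so a count of 0 does not set the sites apart. Chromosome 17 held 7.07% of the sites (95% Wilson interval 3.47 to 13.9), against 2.88% of the high-scoring sites with an input peak and 3.41% of the lower-scoring input-free sites. Chromosome 4 held 1 site, on the minus strand from 40529389 to 40529413, or 1.01% (0.18 to 5.50), against 5.95% and 6.26%. Of the 25 chromosomes, these were the 2 for which the share of the sites with an input peak lay outside the interval. For the lower-scoring sites chromosome Y was added, with 2.02% (2 sites; 0.56 to 7.07) against 0.52%. These shares were read over 25 chromosomes with no adjustment, and no chromosome was tested. Chromosome 19, on which 2.59% and 2.71% of all pull-down peaks and 4.88% and 4.54% of all input peaks lay, held 3 of the sites (3.03%, 1.04 to 8.53). Within 5 Mb of a chromosome end lay 9 of the sites (9.09%, 4.86 to 16.4), against 6.30% of the high-scoring sites with an input peak and 5.94% of the lower-scoring ones. The interval includes both of these shares.

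Few of these sites lay near each other. The 99 sites lay in 99 different fixed windows of 100 kb on 1 strand, so the most in a window was 1. The median distance from a site to the nearest other one, on either strand, was 9.51 Mb. Within 1 Mb of another lay 9 sites, on chromosomes 5, 8, 10 and 20. The closest pair, both minus-strand sites of chromosome 20, spanned 31397652 to 31397678 (scores of 132 and 143) and 31403937 to 31403964 (119 and 197) and lay 6.26 kb apart. An edge of the fixed windows fell between them, so the highest count of 1 depended on where the windows began. On the plus strand of chromosome 8, the sites from 22112353 and from 22595413 were 483 kb apart, and a minus-strand site from 23494208 to 23494224 (168 and 155) lay 899 kb beyond. The windows with a site had a median of 3 peaks in each pull-down, the site included, and of 0 and 1 in the inputs. They held up to 22 and 24 peaks of the pull-downs and up to 5 of each input. In 33 of the 99 windows neither input had a peak, and in 5 the site was also the only peak of each pull-down.

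Most sites stood alone on their strand at short range. No other peak of the same list lay within 1 kb of 89 sites in replicate 1 (89.9%, 82.4 to 94.4) and of 91 in replicate 2 (91.9%, 84.9 to 95.8). Within 10 kb the numbers without a neighbour were 60 (60.6%) and 58 (58.6%). The median distance to the nearest other peak was 14.6 kb in replicate 1 and 13.3 kb in replicate 2, with extremes of 0.111 and 93.3 kb and of 0.287 and 127 kb. This was close to what other shared sites showed. High-scoring sites with an input peak had medians of 17.1 and 15.6 kb and stood alone within 1 kb in 94.4% and 94.1% of cases. Lower-scoring input-free sites had medians of 16.7 and 14.7 kb, with 92.3% and 90.9%. The difference from the sites with an input peak was -3.4 ± 1.7 percentage points (SD over 2 libraries; two-sided exact sign-flip p = 0.5, the smallest possible). That from the lower-scoring sites had opposite signs in the 2 libraries, -2.39 and 1.03 points. Here too both libraries list the same sites, so their values are not independent.

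**Figure D5:**
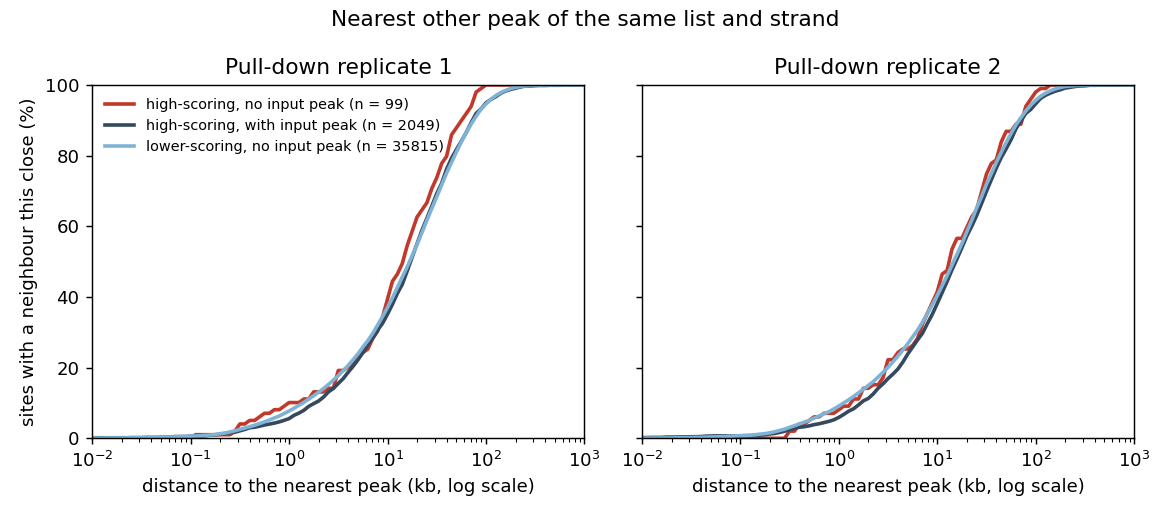
Share of sites whose nearest other peak of the same list and strand lies within a given distance (y axis, percent; x axis, kb, log scale), in pull-down replicates 1 and 2, for the same 3 groups of sites. The curves run close together, with medians of 14.6 and 13.3 kb for the high-scoring sites without an input peak, 17.1 and 15.6 kb for those with one and 16.7 and 14.7 kb for the lower-scoring sites.

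A neighbour within 1 kb on the same strand was listed for 11 sites in at least 1 pull-down and for 7 in both. At 5 of the 7, its distance differed between the pull-downs by at most 5 bases. The sites on chromosome 18 (plus strand, 37642305 to 37642333; scores of 152 and 151) and the plus strand of chromosome 8 from 48982159 had neighbours 377 and 376 bases and 290 and 287 bases away. At the site on chromosome 5 (minus strand, 60021141 to 60021158) the neighbour lay 489 bases away in each pull-down, and the inputs listed peaks 847 and 846 bases away. Besides it, an input peak within 1 kb was listed for the site of chromosome 4, at 532 bases in input replicate 2, and for a site on chromosome 17 (minus strand, 26931161 to 26931179), at 672 bases in input replicate 1. These were the only 3 of the 99 sites with an input peak within 1 kb on their strand, and 532 bases was the smallest distance. The rule asked only that input peaks not overlap the site.

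At the other extreme, 49 sites (49.5%) had no peak of any of the 4 libraries within 10 kb on the same strand. From 19 sites the nearest input peak on the same strand was more than 100 kb away. Large distances to input peaks were not particular to these sites. Their median distance on the same strand was 52.9 and 38.8 kb (input replicates 1 and 2). It was 66.1 and 46.2 kb at the lower-scoring input-free sites. At the input-free peaks of at least 100 found in replicate 1 alone it was 36.7 and 29.1 kb. Ranked by the smaller of the distances in the 2 pull-downs, the farthest neighbours on the same strand were those of the site on the minus strand of chromosome 10 from 21104781, at 93271 and 93339 bases, and of a site on chromosome 15 (minus strand, 49302384 to 49302403), at 86507 and 86503 bases. The strongest site, on chromosome 7, followed with 79333 bases in each. A site on chromosome 19 (plus strand, 2892607 to 2892640; scores of 117 and 142) had its nearest neighbour 73391 bases away in each pull-down, and the narrowest site, on chromosome 20, 73283 bases in each. In replicate 2 alone the largest distance was 126889 bases, at a plus-strand site of chromosome 20 from 17207161 to 17207192 with a neighbour 41565 bases away in replicate 1. The same-strand input peaks nearest to the narrowest site were 495906 and 495915 bases away, the largest such distances of the 99 sites. At 41 of the 99 sites the distances to the nearest neighbour differed by at most 10 bases between the pull-downs.

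Peaks around the sites were also compared between pull-downs and inputs, leaving out peaks within 100 bases of each site. The rule itself concerned only overlaps with the site. Leaving out these bases does not make the comparison independent of the rule, since input peaks may be scarcer around sites without one. Within 10 kb on the same strand lay 56 and 70 peaks of the pull-downs, against 14 and 21 of the inputs. Per 10000 listed peaks this was 6.06 ± 0.33 for pull-downs and 4.87 ± 0.15 for inputs (SD over 2 samples), a log2 ratio of 0.29. Both pull-downs lay above both inputs, and the exact permutation test (two-sided) gave p = 0.333, the lowest value within reach of 2 against 2 samples. Without input replicate 2, which leaves 129 sites, the log2 ratio was 0.10 (exact permutation p = 1). Within 100 kb the values were 50.5 ± 1.0 for pull-downs and 50.4 ± 3.3 for inputs, a log2 ratio of 0.00 (exact permutation p = 1), so the groups overlapped. Around the high-scoring sites with an input peak the log2 ratio within 10 kb had the other sign, -0.28, with 109.5 ± 0.7 against 132.7 ± 6.3 per 10000 peaks, and around the lower-scoring input-free sites it was -0.41 (exact permutation p = 0.333 for each). These groups were chosen by the presence or absence of an input peak at the site. Their ratios of pull-down to input peaks may therefore not be independent of that choice, and the difference between the ratios was not tested. With the score minimum at 50 in place of 100, the ratio around 538 sites was -0.37, so the sign depended on the minimum.

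The sites were divided evenly between the strands, with 48 on the plus strand (48.5%, 95% Wilson interval 38.9 to 58.2) and 51 on the minus strand. High-scoring sites with an input peak had 50.0% on the plus strand and lower-scoring input-free sites 49.8%. Among the peaks of at least 100 found in replicate 1 alone the share was 57.9% (55.1 to 60.7). Plus-strand sites had median widths of 25 and 26 bases and median scores of 152 and 162, and minus-strand sites 27 and 25 bases and 142 and 148. The 3′ end was the same in both pull-downs at 24 plus-strand sites (50.0%) and 23 minus-strand sites (45.1%), and the 5′ end at 11 (22.9%) and 12 (23.5%). The more frequent agreement of the 3′ end therefore appeared on both strands, at the higher coordinate of plus-strand sites and the lower one of minus-strand sites. On chromosome 16 all 5 sites were on the plus strand, and on chromosome 1, 6 of 8 were on the minus strand. Such splits of a few sites carry a wide counting error.

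No site had a peak on the opposite strand over it. Opposite-strand peaks of the same list overlapped 0 of the 99 sites in each pull-down, which allows a share of up to 3.03%, and lay within 100 bases of 0. The nearest were 258 and 280 bases away. Overlaps of this kind were rare in general, at 4 and 3 of the 2049 high-scoring sites with an input peak and at 40 of the 35815 lower-scoring ones in each library, so that 0 of 99 does not set the sites apart. The median distance to the nearest opposite-strand peak was 21.4 and 15.2 kb, against 20.8 and 19.2 kb at the sites with an input peak. Input peaks on the opposite strand overlapped 0 of the 99 sites too, and the nearest were 169 and 163 bases away. Listed input peaks thus overlapped none of the 99 sites on either strand.

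The better-ranked 49 sites by mean rank were set beside the other 50. Their median widths were 25 and 25 bases and 27 and 25.5 bases (replicates 1 and 2), and the wide peaks of replicate 1 numbered 4 and 5. No neighbour lay within 1 kb in replicate 1 for 46 and 43 of them. The same 5′ end was found at 24.5% and 22.0% and the same 3′ end at 40.8% and 54.0%. The agreement of the 3′ end was thus not higher among the stronger sites. By width in replicate 1, the 62 sites of 20 to 35 bases had median scores of 155.5 and 156, the 22 narrower ones 141 and 148.5, and the 9 of at least 50 bases 134 and 161. Of the 9 wide sites 6 had the same 3′ end and 1 the same 5′ end.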

How the data were processed

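Peak lists of 2 pull-down and 2 input samples were used as deposited, 1 list per sample. Per the submitters' processing notes, STAR, featureCounts and GRCh38 were used, with no versions. The sources used here name neither a peak caller nor its threshold. The authors' deposited score is a whole number of unstated meaning and served only to rank or filter within a list; the other deposited values are start and end positions, converted to 1-based. The chromosome lengths of GRCh37 and GRCh38 were taken from general knowledge. Overlaps, nearest distances and 5′ and 3′ offsets were computed in Python 3.11.15 with numpy 2.4.6, pandas 2.3.3 and scipy 1.17.1, and tested on simulated lists with planted sites. The best-scoring overlapping peak was the partner in replicate 2. Shares carry 95% Wilson intervals for counting error; neighbouring sites are not independent. Read depth is unknown. Levels around sites were log2 values of the number of peaks plus 0.5, per 10000 peaks of the list, compared by exact permutation over samples. The sites, comparison groups and measures were chosen with earlier results of these data known. Named sites were the 20 best by mean rank, those next to the score minimum, the 5 widest, narrowest, most isolated and least equal in score, and any close pairs; sites with a neighbour within 1 kb, the site of chromosome 4, the third site of chromosome 8, sites of equal width to the narrowest, and the widest and most isolated of replicate 2 were named once their values were known. The planned naming of the windows with most sites gave none above 1 site. Gene, exon and sequence descriptions were not run, since no genome or annotation of the build of the files was used here.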

Additional observations from a re-analysis of the deposited data

How the results depend on the processing

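The number of sites followed the score minimum and the need for both pull-downs. With a minimum of 50 it was 538, with 200 it was 26, and with a sample left out it ranged from 114 to 1593, the high end being 1347 and 1593 where 1 pull-down alone was asked for. With an equal number of best-scoring peaks from each list it was 91, with an overlap of 50% of both peaks 89, and it stayed 99 with inputs looked up on either strand, with no input peak within 100 bases and with the partner free of input peaks too. The median width, 25.5 bases as the mean of both pull-downs, was 19 with a minimum of 50, 27 with 200 and 20 to 25 with a sample left out, the lowest being for sites of 1 pull-down alone. With a minimum of 200, 96.2% of sites had no neighbour within 1 kb, 15.4% the same 5′ end and 34.6% the same 3′ end, over 26 sites, so that the order of the ends held. By definition, fewer sites were alone within 10 kb (59.6%), and more ends met within 2 bases (65.7% and 80.8%). The log2 ratio of peaks within 10 kb, 0.29, was -0.37 with a minimum of 50, 0.00 within 100 kb, and 0.10 to 0.38 with a sample left out, the lowest without input replicate 2 (exact permutation p = 1). The cause of these changes was not tested. The shares of wide sites, of plus-strand sites and of sites with an opposite-strand peak over them stayed inside the 95% interval of the reported value in every alternative run. With the replicate number as a block the log2 ratio was 0.29 (two-sided exact sign-flip p = 0.5, the smallest that 2 pairs allow). Same-numbered samples are not stated to share a culture; over 2776 regions of 1 Mb the deviations of the pull-downs and the inputs correlated at 0.05. Comparisons with the pull-down samples left out of the ratio were added after the data had been seen. List length limits every statement about missing input peaks.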
